A study of Mus musculus with 2 samples.

Results

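The genes described here encode the translation initiation factors (symbols beginning Eif and a digit), the elongation factors (Eef and a digit), and the kinases, methyltransferases and binding proteins that carry those names. They were taken as all probe sets whose platform annotation names a single gene with such a symbol, leaving out the sex-chromosome genes Eif2s3x and Eif2s3y. This gave 67 probe sets of 62 genes, out of 34472 probe sets and 22180 named genes. The rule used no measured value. One of the genes, Eif2c5, is a member by its symbol alone: RefSeq lists it as a long noncoding RNA with the synonym Ago5, an Argonaute name, and it is no translation factor.

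The RNA came from ribosomes of Drd2-expressing cells in the medial prefrontal cortex of adult D2Cre::RiboTag mice. In such mice Cre recombinase, expressed under control of the Drd2 driver, switches on a haemagglutinin-tagged ribosomal protein, so that an antibody to the tag precipitates the ribosomes of those cells with their messengers. Tissue of 5 mice was pooled, and the labels describe the 2 arrays as technical replicates of such a pool. They form 1 group, and no unprecipitated RNA, mock precipitation or further condition was analysed here. The data therefore give which factor genes had signal and how far technical repeats scattered, and p-values are not given.

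Translation of a messenger begins when the initiation factor eIF2 delivers the initiator tRNA to the small ribosomal subunit, the large complex eIF3 holds that subunit ready, and the eIF4 factors recruit it to the capped end of the messenger. Elongation factors then bring in each aminoacyl-tRNA and move the ribosome along. In neurons these steps are targets of signalling: kinases that phosphorylate eIF2, binding proteins that sequester the cap-binding protein eIF4E under control of mTOR, and the kinase of elongation factor eEF2 are all known to shape synaptic plasticity and memory.

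All values are log2 signals, given for replicate 1 and then replicate 2, and a gene with several probe sets has their mean. SD is over the 2 technical arrays (n = 2), so it holds no variation between animals. A gene was called above background when each array put it over the upper limit of genes that cortex should lack, set as the 95th percentile of 1394 sensory (olfactory or vomeronasal) receptor genes, at 5.61 and 5.66. Probes differ in how strongly they bind, so each gene is set against this threshold and not against another gene. Cell type markers were read first. Drd2 read 10.78 and 10.70, and all 6 pan-neuronal markers passed, with means from 11.12 to 13.70. Without unprecipitated RNA or a mock precipitation, these values cannot show that neuronal messengers were enriched. Markers of other cells also had signal. Of these, 6 of 6 astrocyte, 5 of 5 measured oligodendrocyte, 6 of 6 microglia and 4 of 5 endothelial markers exceeded background. The medians of these lists were 7.61, 8.22, 7.16 and 6.15. Their highest means were 11.05 for Aldoc, 9.39 for Mobp, 7.84 for Cx3cr1 and 7.16 for Flt1. The part of these other cells in the signal of the factor genes, which every cell type uses, was not tested. With no unprecipitated RNA or mock precipitation, signal from tagged and untagged cells cannot be told apart. In such pooled RNA, neither can fewer cells of a type and less RNA per cell.

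Nearly all of the measured factor genes had signal in this RNA. Of the 62 factor genes, 58 were above background on both arrays, where 60.3% of all named genes were. Their median was 8.76, against 6.36 over all named genes and 7.90 over the named genes above background. By probe set, 61 of 67 passed, where 60.1% of all probe sets naming a single gene did. The 4 genes not above background were the eIF2 kinase Eif2ak2, the cap-binding paralog Eif4e1b, the methyltransferase Eef1akmt3 and the noncoding Eif2c5. Leaving out kinases, methyltransferases, binding proteins and Eif2c5 left 48 genes, here called factors proper. Of these 47 passed, Eif4e1b being the exception. By this definition they still hold Eef1e1, Eif4a3, Eif4a3l1 and Eif1ad, which are members by symbol and are described below.

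A stricter threshold, the 99th percentile of the same receptor genes at 6.64 on both arrays, was passed by 54 factor genes and by 45.0% of all named genes. The genes that failed in addition were Eif3j1, Eif4a3l1, Eef2kmt and Eef1aknmt. The strictest was the 95th percentile of 33 genes of testis, liver and skeletal muscle, at 7.62 and 7.58, here called the out-of-tissue threshold. It was passed by 47 factor genes and by 32.9% of all named genes. It rests on few genes, since it falls between the sperm tail genes Odf1 and Odf2, and Odf2 is also known outside testis.

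**Figure D1:**
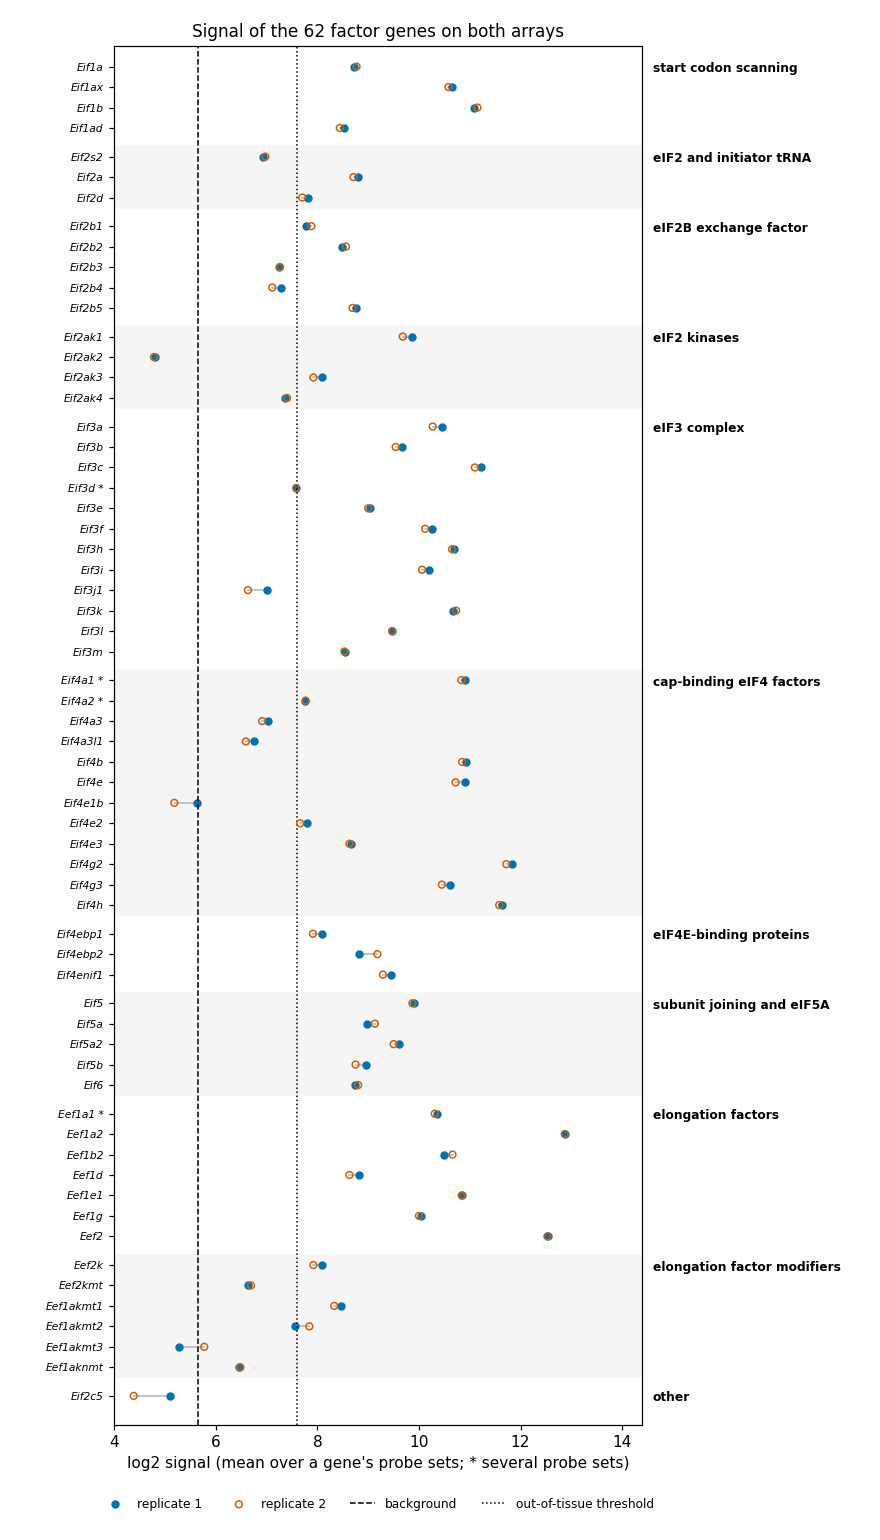
Log2 signal (horizontal axis) of each of the 62 factor genes on replicate 1 (filled) and replicate 2 (open), by role; the dashed line is the mean of the background thresholds of the arrays and the dotted line that of the out-of-tissue threshold. Eif2ak2, Eif4e1b, Eef1akmt3 and Eif2c5 are the genes not above background on both arrays.

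Of the 5 genes listed under scanning for the start codon, which by symbol include Eif1ad, 4 were measured and all 4 were above background. The main start codon factor gene Eif1 was not analysed here. Eif1a and Eif1ax encode forms of the factor that keeps the small subunit open for scanning. Eif1a read 8.72 and 8.77 (SD 0.04). Eif1ax, the X-linked copy, read 10.65 and 10.58 (SD 0.05). Eif1b, a paralog of the start codon fidelity factor, read 11.08 and 11.15 (SD 0.05). Eif1ad, a related protein, read 8.52 and 8.44 (SD 0.06). The arrays differed by at most 0.08 in these 4 genes, and all 4 passed every threshold.

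Of eIF2 and its relatives, the beta subunit lay nearer to background. Eif2s2, which encodes that subunit, read 6.92 and 6.97 (SD 0.04), on average 1.31 over the thresholds. Eif2a and Eif2d encode alternative initiator tRNA carriers that are separate from eIF2. Eif2a read 8.79 and 8.71 (SD 0.06) and Eif2d read 7.81 and 7.70 (SD 0.08). The alpha subunit gene Eif2s1 was not analysed here.

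The exchange factor eIF2B, which recharges eIF2 with GTP and is the step that phosphorylated eIF2 blocks, was represented by all 5 subunit genes. The regulatory subunit Eif2b1 read 7.77 and 7.88 (SD 0.08), and Eif2b2 read 8.49 and 8.56 (SD 0.05). Eif2b3 read 7.24 and 7.26 (SD 0.01) and Eif2b4 read 7.29 and 7.11 (SD 0.13). Eif2b5, the catalytic subunit, read 8.75 and 8.69 (SD 0.04). All 5 genes were above background and above the 99th percentile of sensory receptor genes, while Eif2b3 and Eif2b4 did not pass the out-of-tissue threshold. Mutations in these genes are known to cause vanishing white matter disease.

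Promoter sequence was examined for features that the members share beyond their names. RefSeq windows (assembly GRCm38.p6, from 250 bases before to 50 after a transcript start) were found for 48 of the 62 genes. The motif CCGGAAG, the core bound by ETS transcription factors, was present on either strand in at least 1 window of 16 of these 48 genes (33.3%). The same letters were present in 9.93% of all 27025 genes with a window, and in 17.7% of the 10481 such genes above background on the arrays. The motif CACGTG, the E-box bound by Myc and its relatives, was present in 12 of 48 genes (25%), against 8.09% of all genes and 11.4% of those above background. The motifs were chosen after the promoters had been read, windows of a gene can overlap, and a match is a run of letters and not a shown binding site. A pair of eIF2B subunits carries the ETS core shortly after the transcript start, and their windows from 150 bases before to 30 after the start are printed to show it, with CCGGAAG in capitals.
Eif2b2, chr12:85219331-85219510, plus strand: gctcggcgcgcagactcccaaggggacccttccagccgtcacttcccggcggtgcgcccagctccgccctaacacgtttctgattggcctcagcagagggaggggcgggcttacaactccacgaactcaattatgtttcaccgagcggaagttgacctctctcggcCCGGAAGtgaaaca
Eif2b4, chr5:31193110-31193289, minus strand: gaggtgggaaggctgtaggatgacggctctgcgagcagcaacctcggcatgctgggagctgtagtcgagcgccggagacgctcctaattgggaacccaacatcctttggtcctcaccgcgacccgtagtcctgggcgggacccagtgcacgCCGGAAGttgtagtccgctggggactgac
Counted from the RefSeq start, the motif begins at base 2 in Eif2b4 and at base 17 in Eif2b2.

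The kinases that phosphorylate eIF2 in the integrated stress response divided into 3 with signal and 1 without. Eif2ak1, the heme-regulated kinase HRI that also relays mitochondrial stress, read 9.87 and 9.68 (SD 0.13). Eif2ak3, the endoplasmic reticulum stress sensor PERK, read 8.08 and 7.92 (SD 0.11). Eif2ak4, the amino acid sensor GCN2, read 7.37 and 7.40 (SD 0.02). Each of the 3 was above background and the 99th percentile on both arrays, and Eif2ak4 did not pass the out-of-tissue threshold. Eif2ak2, the kinase PKR that double-stranded RNA activates, read 4.79 and 4.78 (SD 0.01), with a mean margin of -0.85 to the background thresholds. Its arrays thus repeated closely at a level not above background, from a single probe set.

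Eif2ak2 is known as an interferon-induced gene. The core of the interferon-stimulated response element is GAAA, any pair of bases, GAAA. It was found on either strand in 2 of 48 member genes (4.17%), Eif2ak2 and Eif3a. The shares were near that, at 3.99% of all genes with a window and 3.26% of those above background. This core begins at base 19 counted from the RefSeq start of Eif2ak2, and other starts were not examined. It stands in capitals in the window of that gene, from 150 bases before to 30 after the start.
Eif2ak2, chr17:78882543-78882722, minus strand: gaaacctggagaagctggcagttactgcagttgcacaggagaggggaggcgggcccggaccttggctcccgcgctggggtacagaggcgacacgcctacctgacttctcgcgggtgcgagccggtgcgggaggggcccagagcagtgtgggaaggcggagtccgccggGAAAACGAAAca
No interferon treatment is part of this study, so nothing about the response of this gene was measured.

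The scaffold complex eIF3 binds the small subunit and bridges it to the cap complex. Of its 14 listed genes 12 were measured, and Eif3g and Eif3j2 were not analysed here. All 12 measured subunit genes passed background and had a median of 9.87 and a range of means from 6.82 to 11.17. Eif3a, the large core subunit, read 10.45 and 10.27 (SD 0.13). Eif3b, which with Eif3a nucleates the complex, read 9.67 and 9.54 (SD 0.09). Eif3c, a further core subunit, read 11.23 and 11.10 (SD 0.09). These core genes were at least 3.97 above the mean background threshold. Eif3e, Eif3f, Eif3h, Eif3i, Eif3k, Eif3l and Eif3m had means from 8.54 to 10.70 and passed every threshold.

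Eif3d and Eif3j1 were the eIF3 genes with less certain signal. Eif3d encodes the subunit that can itself bind the cap of selected messengers. Its probe sets lay on different sides of background, at 9.96 and 10.01 for the brighter and 5.20 and 5.15 for the dimmer, and their mean of 7.58 hides that gap. Eif3j1, a loosely bound subunit, read 7.0 and 6.63 (SD 0.26), among the largest array differences of the members. It passed the 99th percentile on replicate 1 and not on replicate 2. A further probe set names both Eif3j1 and its near-identical copy Eif3j2, so it belongs to no member, and it read 7.71 and 7.65.

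The group here called cap-binding eIF4 factors included both the general and the more specialised paralogs. Besides the eIF4E proteins, which bind the cap, it holds scaffolds, helicases and helper factors. Of 12 measured genes, 11 passed background, and the median was 9.59. Eif4e, the cap-binding protein itself, read 10.91 and 10.72 (SD 0.13). Eif4e2, a homolog known for repressing translation, read 7.80 and 7.66 (SD 0.10), and Eif4e3, an atypical cap binder, read 8.66 and 8.63 (SD 0.02). All of these passed every threshold. Eif4e1b, a paralog known from oocytes, read 5.63 and 5.18 (SD 0.32), just over background on replicate 1 and under it on replicate 2.

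Myc is known to drive Eif4e through E-boxes. The window of 1 of the 2 RefSeq starts of Eif4e holds CACGTG at position -64 relative to the start, and a further copy at position -228 lies outside the stretch printed here.
Eif4e, chr3:138527118-138527297, plus strand: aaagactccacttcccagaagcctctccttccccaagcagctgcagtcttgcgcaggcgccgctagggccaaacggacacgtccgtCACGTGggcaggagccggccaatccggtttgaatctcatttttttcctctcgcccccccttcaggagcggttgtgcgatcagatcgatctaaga
The capitals mark the E-box.

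The scaffolds and helper factors of the cap complex also had clear signal. Eif4g2, a scaffold that lacks the eIF4E-binding part and serves cap-independent initiation, read 11.84 and 11.72 (SD 0.08). Eif4g3, a close relative of the main scaffold, read 10.61 and 10.45 (SD 0.11). The main scaffold gene Eif4g1 was not analysed here. Eif4b and Eif4h encode proteins that stimulate the helicase. Eif4b read 10.93 and 10.85 (SD 0.06) and Eif4h read 11.64 and 11.58 (SD 0.04). All 4 genes lay at least 4.89 over the mean background threshold.

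The helicase genes showed how much a gene value can depend on its probe sets. Eif4a1 and Eif4a2 encode the helicase that unwinds messengers near the cap, and Eif4a2 is the form known to be abundant in brain. The probe sets of Eif4a1 read 13.50 and 13.45 for the brighter and 8.33 and 8.22 for the dimmer, all above background. Those of Eif4a2 read 11.56 and 11.51, 7.03 and 7.09, and 4.67 and 4.70, the last of them below background. Within each probe set the arrays differed by at most 0.11, far less than the gaps between probe sets of a gene. Further probe sets are annotated to Eif4a2 together with a small nucleolar RNA: that shared with Snora81 read 10.35 and 10.48, and that shared with Snord2 read 5.79 and 5.82. Which transcript or intron each probe set targets is not given in the sources used here.

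**Figure D2:**
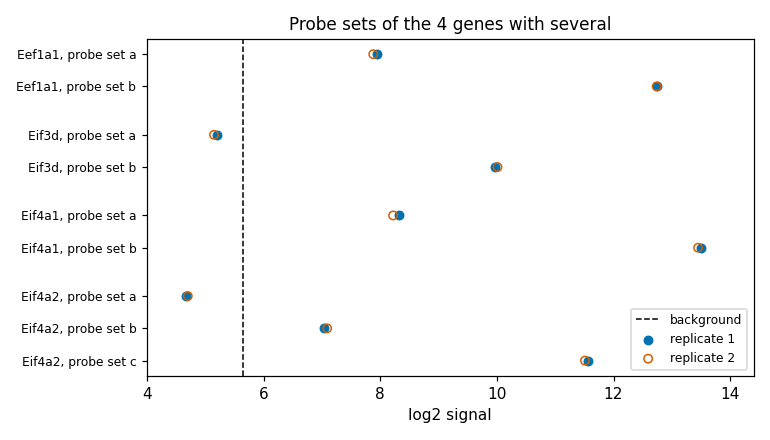
Log2 signal (horizontal axis) of every member probe set of the 4 genes that have more than 1, on replicate 1 (filled) and replicate 2 (open), with the mean background threshold dashed. Arrays coincide closely within a probe set, while probe sets of Eif3d and of Eif4a2 lie on both sides of background.

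Eif4a3, the helicase paralog known as an anchor of the exon junction complex, read 7.02 and 6.91 (SD 0.08). Its relative Eif4a3l1 read 6.75 and 6.59 (SD 0.11), and a probe set annotated to both of them and Gm5576 read 9.30 and 9.36. Because that probe set names several genes it belongs to neither, and its signal cannot be divided between them. Both genes passed background and neither passed the out-of-tissue threshold.

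The proteins that bind eIF4E were all detected where measured. When unphosphorylated, the Eif4ebp proteins among them block eIF4E, and mTOR releases them. Eif4ebp2, the form known to predominate in brain and linked to autism-like behaviour in mice, read 8.82 and 9.18 (SD 0.25). Eif4ebp1 read 8.09 and 7.91 (SD 0.13). Eif4enif1, which carries eIF4E to the nucleus and to processing bodies, read 9.44 and 9.29 (SD 0.11). All 3 genes passed every threshold, and Eif4ebp2 moved between arrays in the direction opposite to the other two. The only probe set of Eif4ebp3 also names Ankhd1 and is no member. It read 5.80 and 5.53, above background on replicate 1 only.

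The factors of subunit joining and eIF5A passed every threshold. Eif5, which triggers GTP hydrolysis by eIF2, read 9.91 and 9.87 (SD 0.03). Eif5b, which joins the large subunit, read 8.95 and 8.75 (SD 0.14). Eif6, which keeps free subunits apart, read 8.74 and 8.80 (SD 0.04). Eif5a and Eif5a2 encode the only proteins known to carry hypusine, a modified lysine that helps the ribosome past difficult peptide bonds. Eif5a read 8.97 and 9.13 (SD 0.11). Eif5a2, a paralog known for restricted expression in adult tissue with brain among its sites, read 9.61 and 9.50 (SD 0.08). Both paralogs therefore had signal in this RNA, at least 3.41 over the mean background threshold.

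The genes grouped as elongation factors, which by symbol include the multi-synthetase component Eef1e1, all gave signal above background. All 7 measured genes passed every threshold, and their median was 10.58, where that of all named genes was 6.36. Eef1a2, the form of the tRNA carrier eEF1A that replaces Eef1a1 in mature neurons and muscle, read 12.87 on both arrays. Eef1a1, the form used by most other cells, had probe sets at 12.74 on both arrays and at 7.95 and 7.88, with a mean of 10.33. Eef1a1 has many processed pseudogenes, and 2 further probe sets name it together with Gm6548 or Gm7614. They read 11.73 and 11.58, and 9.83 and 9.92. Both eEF1A genes thus had a probe set more than 7 log2 units over the background thresholds, and signal of Eef1a1 is uncertain as to its source locus.

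The exchange complex of eEF1A and the translocase also had signal, by mean margins over background from 3.08 for Eef1d to 6.90 for Eef2. Eef1b2, the catalytic exchange subunit, read 10.50 and 10.66 (SD 0.11). Eef1d, a further exchange subunit, read 8.81 and 8.63 (SD 0.13), and Eef1g, the structural subunit, read 10.04 and 10.00 (SD 0.03). Eef1e1, a component of the multi-synthetase complex, read 10.84 on both arrays. Eef2, which translocates the ribosome, read 12.55 and 12.53 (SD 0.01). Over the 7 genes the median absolute difference between arrays was 0.04.

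Eef2 is the member whose promoter letters included the cyclic AMP response element TGACGTCA. This element was found in 1 of 48 member genes (2.08%), near the 2.03% of all genes with a window. Of the genes above background 3.46% had it. The Eef2 window also holds an E-box, CACGTG, and the TATA box letters TATAAA. The latter occurred in 3 of 48 member genes (6.25%: Eef2, Eif3b and Eif3f), in 15.7% of all genes and in 9.01% of those above background. All of these letters were searched on both strands, and each stands in capitals.
Eef2, chr10:81176481-81176660, plus strand: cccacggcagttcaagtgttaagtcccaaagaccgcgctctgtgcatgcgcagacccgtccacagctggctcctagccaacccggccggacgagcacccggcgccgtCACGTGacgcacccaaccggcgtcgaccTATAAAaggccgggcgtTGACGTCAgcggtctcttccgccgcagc
Relative to the RefSeq start, the E-box begins at position -43, the TATA box letters at position -15 and the cyclic AMP response element at base 3.

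Enzymes that modify elongation factors passed the stricter thresholds in shares near those of all named genes. Of 6 measured genes 5 were above background, 3 passed the 99th percentile and 2 the out-of-tissue threshold. Of all named genes 60.3%, 45.0% and 32.9% did. Eef2k, the calcium and calmodulin-dependent kinase that phosphorylates and stops eEF2, read 8.09 and 7.92 (SD 0.12). Eef1akmt1, a lysine methyltransferase of eEF1A, read 8.46 and 8.33 (SD 0.09), and Eef1akmt2 read 7.55 and 7.84 (SD 0.21). Eef2kmt, a methyltransferase of eEF2, read 6.63 and 6.69 (SD 0.04), and Eef1aknmt, which methylates the amino terminus and a lysine of eEF1A, read 6.46 and 6.48 (SD 0.01). Eef1akmt3 read 5.28 and 5.77 (SD 0.35), below background on replicate 1 and above it on replicate 2. Its call therefore rests on which array is read.

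Genes that act with these factors were nearly all detected as well. Of 43 measured genes in 7 lists, 42 were above background and 26 passed the out-of-tissue threshold, where 60.3% and 32.9% of all named genes did. Their median was 8.36. The exception was Pabpc1, the main binder of the poly(A) tail, whose single probe set read 5.58 on both arrays. That is just under the background thresholds of 5.61 and 5.66. Whether other probe sets name Pabpc1 together with further genes was not examined. Pabpc4, a paralog, read 6.28 and 6.42. At the out-of-tissue threshold the lists differed in count: all 7 measured mTOR branch genes passed it, and 2 of 8 mitochondrial translation factors did. Differences between lists were not tested.

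The mTOR branch and the integrated stress response, which set the activity of eIF4E and eIF2, gave signal in every measured gene. Mtor read 10.09 and 10.07, and Rptor, its partner that recruits the eIF4E-binding proteins, read 10.20 and 10.26. Atf4, the transcription factor translated when eIF2 is phosphorylated, read 9.41 and 9.49, and Ddit3, its stress target, read 8.14 and 8.05. All 7 measured genes of each list were above background. Messenger and not protein or phosphorylation was measured, so the activity of either branch is not shown.

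The remaining lists hold the enzymes that modify factors, the factors of termination and recycling, and those of mitochondria and selenocysteine. Dhps, the first enzyme of hypusine synthesis, read 8.94 and 9.02, and Dohh, the second, read 7.01 and 6.81. With the enzymes of diphthamide synthesis, which modifies eEF2, 6 of 6 measured genes were above background, 3 of them over the out-of-tissue threshold too. The release factor genes Etf1 and Gspt1 read 10.14 and 9.96, and 9.47 and 9.42, and all 6 genes of termination and recycling passed background, 4 of them also the out-of-tissue threshold. Of the mitochondrial factors, which serve a separate set of ribosomes, Mtif2 read 7.62 and 7.67 and Mtif3 read 7.48 and 7.30. All 8 of them were above background, with a median of 7.49. Eefsec and Secisbp2, which insert selenocysteine, read 8.66 and 8.75, and 7.86 and 7.84. Paip1, which binds the poly(A)-binding protein and eIF4A, read 9.83 and 9.78.

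**Figure D3:**
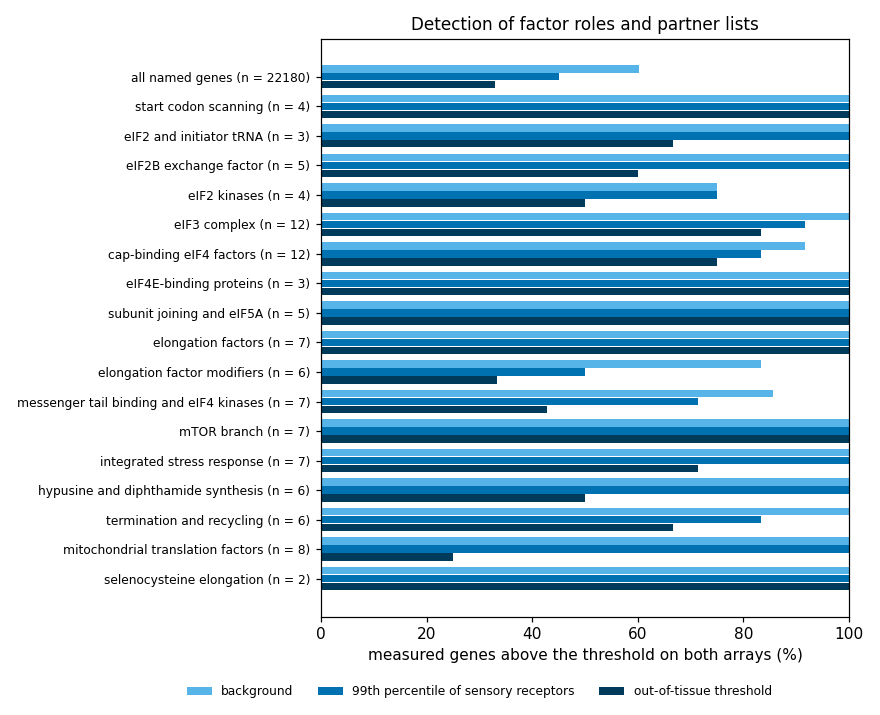
Share of measured genes (horizontal axis, percent) above background, above the 99th percentile of sensory receptor genes and above the out-of-tissue threshold on both arrays, for all named genes, each factor role and each partner list, with the number measured in brackets. All 7 genes grouped as elongation factors and all 7 measured mTOR branch genes pass all 3 thresholds. At the strictest, 32.9% of all named genes pass.

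The technical arrays repeated closely, but no more so for these genes than for others of like signal. The median absolute difference between arrays was 0.10 over the 62 factor genes, 0.12 over all named genes and 0.09 over the named genes above background. By mean signal it was 0.47 for the 4 members below 6, against 0.18 for all named genes in that range. From 6 to 8 it was 0.11 for both. From 8 to 10 it was 0.11 against 0.08, and at 10 or more 0.075 against 0.07. Of the members, 6 differed by more than 0.25 (9.68%), where 8.42% of named genes above background and 19.2% of all named genes did. The 5 largest differences were those of Eif2c5 at 0.71, Eef1akmt3 at 0.49, Eif4e1b at 0.45, Eif3j1 at 0.37 and Eif4ebp2 at 0.36, the first 3 of which were not above background. Eif2c5 read 5.09 and 4.38 (SD 0.50). Eif2ak2, also below background, differed by 0.01.

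A small downward shift on replicate 2 was seen in most members, but not in every role or signal range. Replicate 2 was lower than replicate 1 in 41 of 62 factor genes, where 50.3% of all named genes were lower and 53.5% of those above background. The median of replicate 2 minus replicate 1 was -0.06 over the members, -0.01 over all named genes and -0.02 over those above background. By role, replicate 2 was lower in 11 of 12 genes grouped as cap-binding eIF4 factors, 9 of 12 eIF3 genes and 3 of 4 eIF2 kinases. The count was 2 of 3 for eIF2 and its relatives and for the eIF4E-binding proteins. It was 3 of 5 for subunit joining and eIF5A, 4 of 7 for elongation factors and 2 of 4 for start codon scanning. For eIF2B it was 2 of 5 and for elongation factor modifiers 2 of 6. Differences between roles were not tested. By mean signal, members were lower on replicate 2 in 3 of 4 genes below 6, in 6 of 15 from 6 to 8, in 17 of 23 from 8 to 10 and in 15 of 20 at 10 or more. Over all named genes the shares in these ranges were 44.9%, 50%, 58.8% and 58.4%. After quantile normalization, an alternative chosen after seeing the data, 41 members were still lower on replicate 2, with a median of -0.05, where 51.7% of all named genes were. The arrays are technical replicates, so this shift is no difference between conditions.

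**Figure D4:**
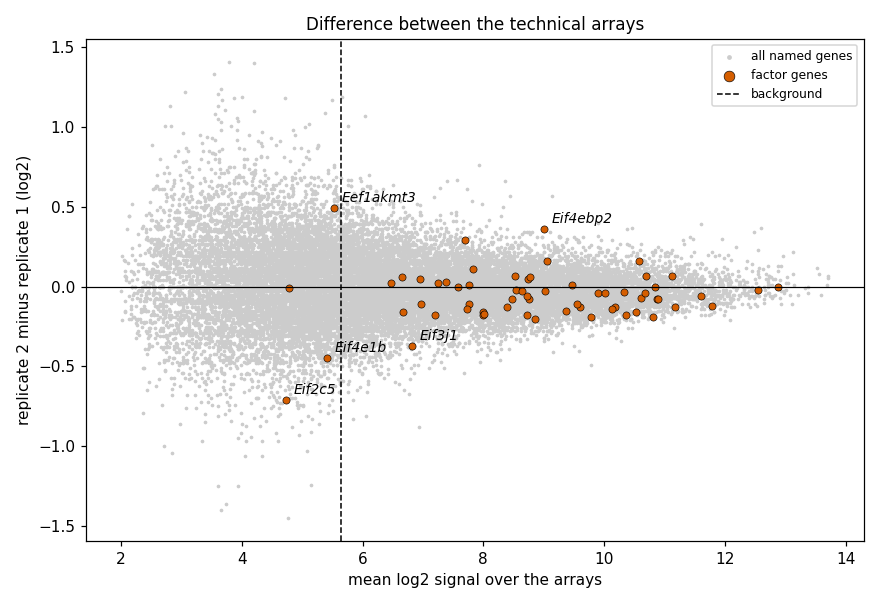
Replicate 2 minus replicate 1 in log2 units (vertical axis) against the mean log2 signal (horizontal axis) for all 22180 named genes (grey) and the 62 factor genes (orange), with the 5 largest member differences named and the mean background threshold dashed. Most factor genes lie within 0.25 of the zero line, and 41 of 62 lie below it.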

How the data were processed

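Per the labels, RNA of haemagglutinin-precipitated ribosomes was extracted with Trizol and a column and labelled with the Affymetrix WT Plus kit. The deposited table holds 1 log2 signal per probe set and array; the log2 scale is inferred from the values, and the background correction, summarisation and normalization used by the authors are unstated in the labels and the file. Of 34472 probe sets, 23521 named 1 gene in the platform annotation, 1814 several (not used for names) and 9137 none. RefSeq gene identifiers changed 0 symbols. Probe sets of a gene were averaged, giving 22180 genes.

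Genes were named by role: all in roles of up to 7 measured genes, otherwise the first 4 and the rest by range, and in any role those not above background, with discordant probe sets, with the 5 largest array differences or with tissue-restricted paralogs; of partner lists, the first 2 and those not above background. Other genes named, such as Paip1, the remaining cap factors and the outside probe sets, were chosen after their values were seen. Members and lists were chosen with earlier results of these data known. Of 69 listed factors 8 were not analysed here, and of the partner genes 4. The calling step was checked on simulated arrays with genes set well above or well below the threshold. That check cannot speak for calls near the threshold, such as those of Eef1akmt3 and Eif4e1b. With 2 technical arrays of pooled tissue no statistical test between groups was possible. The number of arrays limits the precision. Alternatives were other thresholds, probe set rules, quantile normalization, each array alone and factors proper. Python 3.11.15 with pandas 2.3.3 and numpy 2.4.6 was used.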

Additional observations from a re-analysis of the deposited data

How the results depend on the processing

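The count of 58 factor genes above background ranged from 47 under the out-of-tissue threshold to 59 on either array alone. All named genes fell from 13374 to 7307 and translation partners from 42 to 26 under the out-of-tissue threshold, which by construction calls fewer genes. The median signal of the factor genes was 8.93 with the highest probe set of each gene, 9.26 over the 48 factors proper, and 8.76 without replicate 1 and 8.80 without replicate 2. The out-of-tissue threshold ended 11 calls among the members and the 99th percentile 4. Without replicate 1, Eef1akmt3 gained its call, and without replicate 2, Eif4e1b did; a threshold at the median of all probe sets, taking each gene's highest probe set, using only genes with a single probe set, and quantile normalization each changed 0 member calls. No paired analysis was possible because the samples form 1 group.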

Other observations

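Probe sets that carry a factor name but fall outside the rule were read for completeness. Eif1-ps3, a pseudogene symbol of the start codon fidelity factor, read 8.69 and 8.83. Probe sets annotated to Eif2s3x and Gm2223 together read 6.52 and 6.64, and 5.83 and 5.51, and the Y-linked Eif2s3y read 7.44 and 7.59. A probe set shared by Aimp2 and Eif2ak1 read 8.90 and 8.75, and a probe set shared by Rfc4 and Eif4a2 read 6.18 and 6.22.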
